A study of Arabidopsis thaliana with 18 samples.

Results

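Roots of the double mutant nac103-11 rab8d-2 were set against roots of its parent line nac103-11, which measures what the rab8d-2 mutation changes where NAC103 is mutated in both groups. All 6 libraries of these genotypes were used, chosen by their labels, of 18 libraries in the series. The nac103-11 rab8d-2 seedlings (3 libraries) carried both mutations and the nac103-11 seedlings (3 libraries) carried nac103-11 alone, with RAB8D intact. The labels describe rab8d-2 as deficient in plastid elongation factor Tu and say no more of the alleles, and WT is Col-0. The series holds 3 libraries each of 4 more genotypes, rab8d-2, WT, gun1-101 rab8d-2 and gun1-101, and asks what GUN1 and NAC103 do for root development when plastid translation is impaired. Every genotype was grown on 1/2 MS plates with 1% sucrose under 16 h light and 8 h dark, with no other treatment. RNA came from root tips, at 4 days after germination by the sample titles and 3 days by the series text. The labels call the libraries biological replicates without naming separate cultures or plates, so the p-values measure the spread between these libraries, which may be partly technical. In bulk tissue, fewer cells of a type and less RNA per cell cannot be told apart.

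RAB8D encodes the plastid elongation factor Tu, the GTPase that delivers aminoacyl-tRNA to the plastid ribosome, and roots need plastids for fatty acid, amino acid and hormone synthesis although they do not photosynthesise. Impaired organelle translation is signalled to the nucleus, where transcription factors of the NAC family take part. NAC013 and NAC017 act on genes of alternative respiration, and NAC044 and NAC085 act downstream of the DNA damage regulator SOG1 in stopping the cell cycle. NAC103 has been linked to the unfolded protein response of the endoplasmic reticulum and to DNA damage signalling.

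Total counts were 22655253 to 22850237 per library in nac103-11 rab8d-2 and 23008423 to 23090995 in nac103-11, which are nearly equal depths. Levels are given as CPM, counts relative to the TMM-scaled library size, and a gene was called changed at a Benjamini-Hochberg adjusted p below 0.05 in edgeR's quasi-likelihood test over all 18 libraries. Replicate 3 of nac103-11 rab8d-2 stood apart: its TMM factor was 0.706, while the other libraries of the comparison had 0.937 to 1.11. Its log2 CPM values correlated with those of the other 2 libraries of its genotype at r = 0.878 and 0.906 across 19271 genes, against r = 0.970 between those 2 and 0.970 to 0.988 among the nac103-11 libraries. Its deviation from the other 2 was negatively related to exon length (Spearman's rho -0.37 across genes, which are not independent replicates), and trends of like size stood in other libraries, from -0.35 to 0.38 over the rest of the series. Of 155 called named genes, the fold change of 44 moved by over 1.5 times without it: 24 of the 24 higher genes among these had a smaller rise, and 20 of the 20 lower genes a larger fall. Root markers were present in nac103-11, where the root hair list summed to 1725 to 2617 CPM. Many of the gene groups below are also given without replicate 3 of nac103-11 rab8d-2.

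RAB8D, listed as RABE1b (AT4G20360, chr4:10989910-10992509, TAIR10.1), had 6.73, 7.73 and 15.8 CPM in nac103-11 rab8d-2, against 88.5, 121 and 136 CPM in nac103-11. The groups did not overlap, and RAB8D RNA was 11.5-fold lower in nac103-11 rab8d-2 as labelled (log2 -3.52 ± 0.34 SE, adjusted p = 4.05e-05). NAC103 (AT5G64060, chr5:25633455-25635789) had 8.35, 3.25 and 7.13 CPM in nac103-11 rab8d-2, against 0.0841, 0.185 and 0.139 CPM in nac103-11. These levels stand for 211, 82 and 114 reads in nac103-11 rab8d-2, against 2, 4 and 3 reads in nac103-11. RNA from the mutated NAC103 gene was thus higher in every nac103-11 rab8d-2 library (log2 5.47 ± 0.62 SE, adjusted p = 9.03e-05), and whether protein is made from it was not measured. With the gene intact, NAC103 had 17.7, 29.7 and 11.4 CPM in rab8d-2, against 1.99, 0.539 and 0.695 CPM in WT. GUN1 (AT2G31400), whose product is a pentatricopeptide repeat protein of plastid signalling, had 72.3, 77.9 and 74.3 CPM in nac103-11 rab8d-2, against 104, 155 and 131 CPM in nac103-11. GUN1 RNA was 1.74-fold lower without overlap (log2 -0.80 ± 0.17 SE, adjusted p = 0.00351).

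Of 21004 genes tested, 6086 or 29.0% were called, 3089 higher (14.7%) and 2997 lower (14.3%) in nac103-11 rab8d-2 than in nac103-11. Of the genes tested, 3624 (17.3%) were called and differed at least 2-fold, and in 8561 (40.8%) the 3 libraries of one genotype lay entirely above or below the 3 of the other. Leaving out each of the 6 libraries in turn, 1489 genes remained called higher and 1770 called lower in all 6 fits. The calls lost most when nac103-11 replicate 2 or 3 was left out, to 1934 or 1959 higher and 2086 or 2108 lower. Without nac103-11 rab8d-2 replicate 3 there were 2963 higher (14.0%) and 3916 lower (18.4%).

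**Figure D1:**
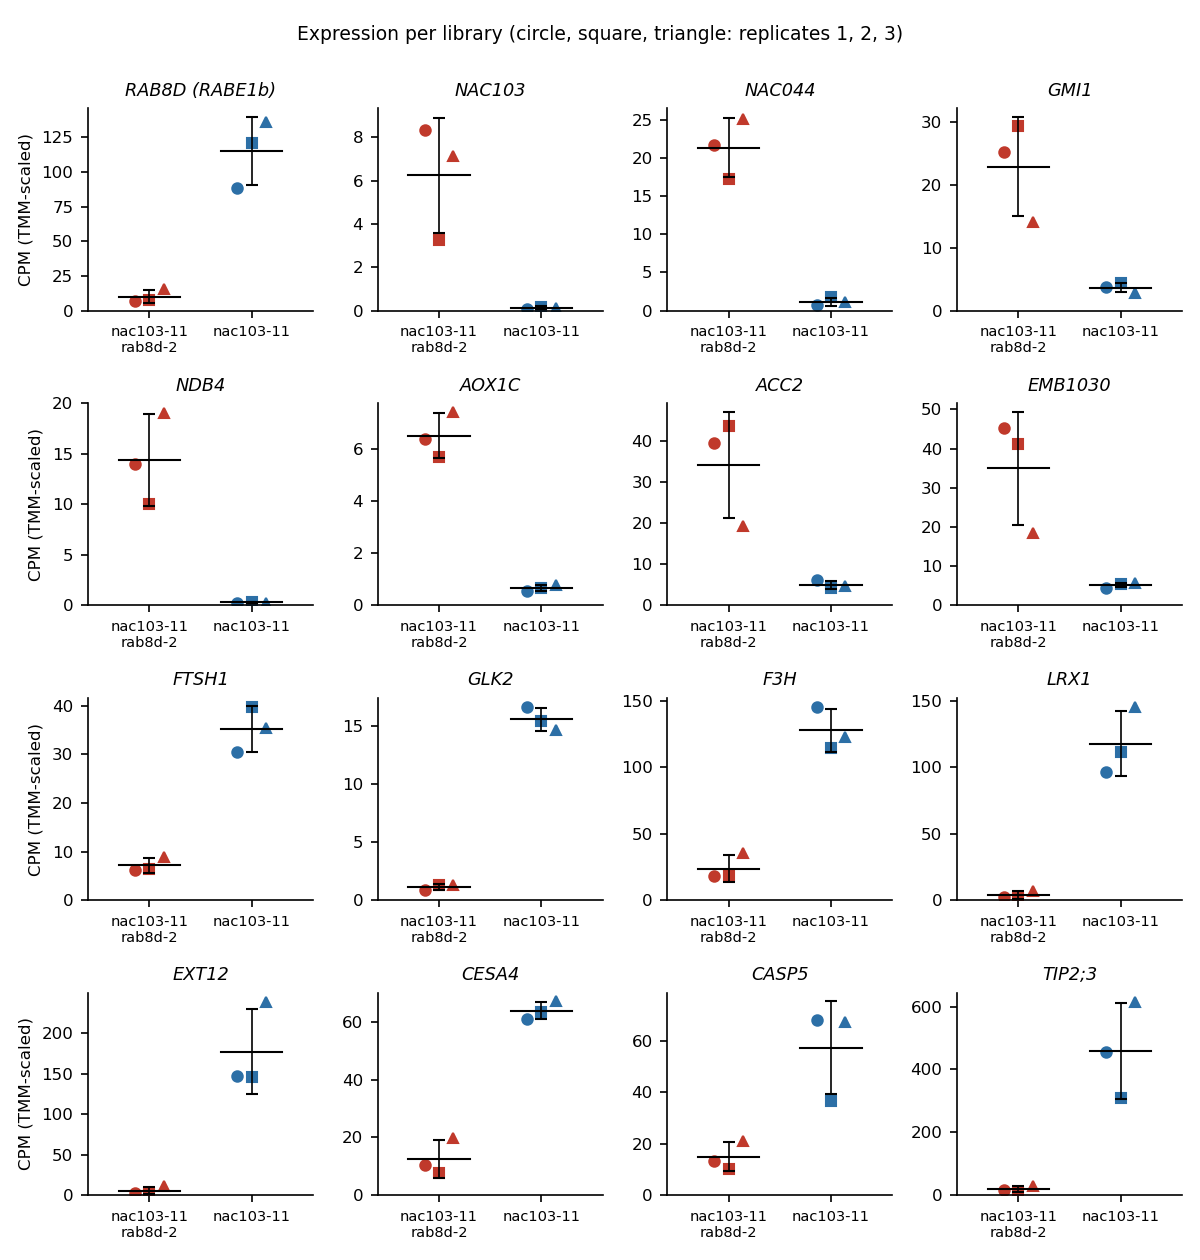
TMM-scaled CPM of 16 named genes in each of the 6 libraries, nac103-11 rab8d-2 at left in red and nac103-11 at right in blue, with the mean (line) and SD (bar, n = 3). In each panel the 3 libraries of one genotype lie apart from the 3 of the other, and RAB8D lies between 6.73 and 15.8 CPM in nac103-11 rab8d-2, against 88.5 to 136 CPM in nac103-11.

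Nuclear genes for plastid functions changed in both directions. ACC2 (AT1G36180), a plastid acetyl-CoA carboxylase for fatty acid synthesis, had 39.3, 43.5 and 19.3 CPM in nac103-11 rab8d-2, against 6.14, 4.12 and 4.59 CPM in nac103-11. ACC2 was 6.87-fold higher (log2 2.78 ± 0.36 SE, adjusted p = 0.000185) and lowest of its genotype in replicate 3. Its neighbour ACC1 (AT1G36160), the cytosolic enzyme, had 80.0 ± 12.6 CPM in nac103-11 rab8d-2 and 159.8 ± 12.3 CPM in nac103-11 (SD, n = 3 each) and fell (log2 -1.0 ± 0.23 SE, adjusted p = 0.00565). The 2 genes are close copies, so reads shared between them make each level uncertain. Among the other plastid fatty acid genes, FATB, a thioesterase that releases fatty acids for export (log2 -0.82 ± 0.16 SE, adjusted p = 0.00230), and ACP4, an acyl carrier protein (log2 -2.04 ± 0.65 SE, adjusted p = 0.0287), also fell. The ACP4 call held in 2 of the 6 fits leaving out a library. Of all 16 tested genes 1 rose and 3 fell, with a median log2 fold change of -0.12. Without replicate 3, 6 fell (median -0.31).

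EMB1030 (AT5G22800), an alanyl-tRNA synthetase that serves organelles, had 45.3, 41.1 and 18.5 CPM in nac103-11 rab8d-2, against 4.54, 5.47 and 5.66 CPM in nac103-11. All 3 nac103-11 rab8d-2 libraries lay above nac103-11, and the gene was 6.70-fold higher (log2 2.74 ± 0.39 SE, adjusted p = 0.000336). Of 15 organellar tRNA synthetase genes, 2 rose and 1 fell: OVA1 rose by log2 0.51 (adjusted p = 0.0318), a call that held in 1 of the 6 fits leaving out a library, and EMB2761 fell (log2 -0.72 ± 0.18 SE, adjusted p = 0.00738). The median of the list was 0.03, beside 0.09 over all genes tested.

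Genes for protein folding and turnover in the plastid changed in both directions, with 8 of 30 chaperone and protease genes called higher and 7 lower (median log2 fold change 0.05). Without replicate 3 of nac103-11 rab8d-2 the counts were 4 and 6. The 4 genes FTSH1, VAR2, VAR1 and FTSH8 of the thylakoid FtsH protease complex fell. FTSH1 (AT1G50250) had 6.17, 6.39 and 8.94 CPM in nac103-11 rab8d-2, against 30.5, 39.9 and 35.4 CPM in nac103-11 (log2 -2.30 ± 0.28 SE, adjusted p = 0.000119), VAR2 (FTSH2) fell by log2 1.36 to 31.0 ± 6.09 CPM (adjusted p = 0.000452) and VAR1 (FTSH5) had a log2 fold change of -1.41 (adjusted p = 0.000918). FTSH8, named after its value was seen, had a log2 fold change of -1.15 (adjusted p = 0.00532). LON4, a gene of the Lon protease family, had 1.46, 1.51 and 0.625 CPM in nac103-11 rab8d-2, against 0.126, 0.0927 and 0.139 CPM in nac103-11 and rose from a very low level (log2 3.28 ± 0.57 SE, adjusted p = 0.00113). HSP21, a small heat shock protein of plastids, had 6, 93 and 40 reads in the 3 nac103-11 rab8d-2 libraries, 139 together, and 0 over the 3 nac103-11 libraries. This puts HSP21 at least 46.6-fold higher against a floor of 3 reads over the nac103-11 libraries.

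In plastid translation 0 of 19 genes were called higher and 4 lower. SCO1, the plastid elongation factor G that works next to elongation factor Tu, had 12.2, 16.8 and 10.3 CPM in nac103-11 rab8d-2, against 31.4, 35.6 and 39.7 CPM in nac103-11 and fell without overlap (log2 -1.44 ± 0.27 SE, adjusted p = 0.00165). The initiation factor gene FUG1 had 8.14 ± 3.01 CPM in nac103-11 rab8d-2 and 19.1 ± 1.91 CPM in nac103-11 (SD, n = 3 each) and fell as well (log2 -1.23 ± 0.32 SE, adjusted p = 0.0104). SVR3, a GTPase of the TypA family, fell less (log2 -0.55, adjusted p = 0.0110). PrfB3, a plastid release factor homologue, was called (adjusted p = 0.0483) and lost the call in 3 of the 6 fits with a library left out. The median over the list was -0.06, beside 0.09 over all genes tested. Without replicate 3 of nac103-11 rab8d-2 it was -0.33, beside 0.03 over all genes, with 0 called higher and 4 lower.

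Tetrapyrrole and photosynthesis genes fell in part. GLK2 (AT5G44190), a transcription factor of chloroplast development, had 0.870, 1.31 and 1.31 CPM in nac103-11 rab8d-2, against 16.6, 15.4 and 14.6 CPM in nac103-11. The groups lay far apart, a 13.4-fold fall (log2 -3.74 ± 0.46 SE, adjusted p = 0.000134). GUN5 (AT5G13630), the H subunit of magnesium chelatase, had 1.98, 2.06 and 3.88 CPM in nac103-11 rab8d-2, against 26.9, 36.1 and 35.4 CPM in nac103-11 and fell likewise (log2 -3.65 ± 0.48 SE, adjusted p = 0.000204). TED4, which is heme oxygenase HY1 (log2 -1.13 ± 0.23 SE, adjusted p = 0.00288), and CHLM, a methyltransferase of chlorophyll synthesis (log2 -1.37 ± 0.29 SE, adjusted p = 0.00364), fell less, and of the 28 tested genes in this list 8 fell and 0 rose (median -0.81). Of 39 photosynthesis genes, 11 fell and 0 rose, with a median of -1.94. PSBO2, of the oxygen-evolving complex, had 3.84, 1.71 and 6.44 CPM in nac103-11 rab8d-2, against 19.7, 42.0 and 33.8 CPM in nac103-11 (log2 -3.01 ± 0.65 SE, adjusted p = 0.00375), and the photosystem I genes PSAK and PSAF had log2 fold changes of -2.65 (adjusted p = 0.00612) and -2.53 (adjusted p = 0.0180). The summed level of the 39 genes, in CPM, was 149, 80.7 and 615 in nac103-11 rab8d-2, against 559, 1174 and 1417 in nac103-11. The library that stood apart thus reached the level of the lowest nac103-11 library, and without it 25 genes fell and the median was -3.45. These genes also mark green tissue, whose part in the result was not tested.

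Genes of alternative respiration rose. The list of 18 tested genes of mitochondrial dysfunction had 10 called higher and 0 lower, against backgrounds of 14.7% and 14.3%, and a median log2 fold change of 1.11. NDB4 (AT2G20800), an alternative NAD(P)H dehydrogenase, had 13.96, 10.0 and 19.1 CPM in nac103-11 rab8d-2, against 0.210, 0.371 and 0.278 CPM in nac103-11. NDB4 was 49.3-fold higher, all 3 libraries far above the others (log2 5.62 ± 0.34 SE, adjusted p = 5.61e-07). AOX1C (AT3G27620), an alternative oxidase that passes electrons to oxygen without pumping protons, had 6.41, 5.71 and 7.44 CPM in nac103-11 rab8d-2, against 0.547, 0.649 and 0.788 CPM in nac103-11 and was 9.79-fold higher (log2 3.29 ± 0.36 SE, adjusted p = 6.96e-05). NAC13 (NAC013), a transcription factor of mitochondrial signalling, had 28.4, 28.2 and 26.4 CPM in nac103-11 rab8d-2, against 8.03, 9.78 and 8.39 CPM in nac103-11 and rose without overlap (log2 1.66 ± 0.22 SE, adjusted p = 0.000224). AOX1D had 92 reads in nac103-11 rab8d-2 and 2 in nac103-11, a ratio of 46.3 (95% exact binomial interval 12.5 to 388, counting error only). The summed level of the list in CPM was 799, 501 and 1728 in nac103-11 rab8d-2, against 537, 697 and 581 in nac103-11, so that the sum of nac103-11 rab8d-2 replicate 2 lay below every nac103-11 library. Without replicate 3, 8 genes were called higher and the median was 0.81.

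The motif of the mitochondrial dysfunction regulon, to which NAC013 and NAC017 bind, was searched on both strands, as CTTG, 5 bases of any kind and then CANG (N being any base), in the 250 bases upstream of each gene's annotated start in RefSeq TAIR10.1. It stood in 1.71% of all 25177 windows, in 2.36% of those of genes called higher and 1.33% of those of genes called lower. Of 19 members of the list 5 held it, and of the 10 called higher 2 did, NDA1 and NDB2. NDA1 (AT1G07180), an alternative dehydrogenase of the inner face of the inner membrane that was picked out after its values were seen, had 2.69, 1.47 and 4.00 CPM in nac103-11 rab8d-2, against 0.504, 0.556 and 0.695 CPM in nac103-11 (log2 2.2 ± 0.54 SE, adjusted p = 0.00829). NDB4, with the higher fold change, had no match in its window. Both windows are shown 5′ to 3′ along the strand of the gene, ending at the base before the start, with the match in capitals, chr1:2203854-2204103 on the plus strand for NDA1 and chr2:8955832-8956081 on the minus strand for NDB4.
NDA1: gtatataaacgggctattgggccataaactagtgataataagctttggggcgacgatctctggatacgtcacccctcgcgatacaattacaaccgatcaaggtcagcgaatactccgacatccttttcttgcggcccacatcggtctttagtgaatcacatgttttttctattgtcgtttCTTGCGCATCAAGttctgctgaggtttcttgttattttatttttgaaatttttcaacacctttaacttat
NDB4: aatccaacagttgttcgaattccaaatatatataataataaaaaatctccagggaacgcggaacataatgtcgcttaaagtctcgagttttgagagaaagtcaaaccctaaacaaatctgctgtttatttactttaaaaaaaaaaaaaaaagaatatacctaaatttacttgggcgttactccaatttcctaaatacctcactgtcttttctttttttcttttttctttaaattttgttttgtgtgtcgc
The capitals in NDA1 also match the SOG1 motif below, since a site that ends in CAAG meets both patterns. A match describes letters and is no evidence of binding.

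DNA damage genes rose in part. Of 35 tested members of the DNA damage list, 9 were called higher and 0 lower, beside 14.7% and 14.3% over all genes tested. The median log2 fold change was 0.39. NAC044 (AT3G01600), a NAC factor that acts in the halt of the cell cycle when DNA is damaged, had 21.7, 17.3 and 25.1 CPM in nac103-11 rab8d-2, against 0.673, 1.71 and 1.11 CPM in nac103-11. It was 18.3-fold higher with a wide gap between the groups (log2 4.19 ± 0.45 SE, adjusted p = 6.96e-05). GMI1 (AT5G24280), a protein of recombination repair, had 25.4, 29.4 and 14.1 CPM in nac103-11 rab8d-2, against 3.78, 4.36 and 2.83 CPM in nac103-11 (log2 2.65 ± 0.29 SE, adjusted p = 7.44e-05). ATRAD17, of the checkpoint clamp loader, was higher by log2 1.81 (adjusted p = 0.000959), and both it and GMI1 were lowest of their genotype in replicate 3. NAC085, the close relative of NAC044, had 82 reads against 3, a ratio of 27.5 (95% interval 9.09 to 136). SMR5 (AT1G07500), a CDK inhibitor induced by DNA damage and picked out after its values were seen, had 0, 0.952 and 4.88 CPM in nac103-11 rab8d-2, against 0, 0 and 0 CPM in nac103-11 and was not called (adjusted p = 0.153). Without replicate 3 of nac103-11 rab8d-2, 12 members were called higher and the median was 0.52.

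SOG1, the central transcription factor of the plant DNA damage response, binds a palindrome of CTT and AAG with 7 bases of any kind between them, which reads alike on both strands. It stood in 9.64% of all 25177 windows, in 10.0% of the windows of genes called higher and in 9.61% of those of genes called lower. It stood in 8 of the 35 members of the DNA damage list and in 3 of the 9 called higher, NAC044 and SMR7 (AT3G27630) among them. SMR7 was picked out after its values were seen. The window of NAC103 held neither motif. The windows of NAC044 (chr3:228825-229074, plus strand) and NAC103 (chr5:25635790-25636039, minus strand) are shown in the same way.
NAC044: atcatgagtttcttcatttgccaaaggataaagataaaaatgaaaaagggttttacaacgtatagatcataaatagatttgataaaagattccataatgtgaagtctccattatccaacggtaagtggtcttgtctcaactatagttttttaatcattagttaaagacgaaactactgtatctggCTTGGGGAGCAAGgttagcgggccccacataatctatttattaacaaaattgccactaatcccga
NAC103: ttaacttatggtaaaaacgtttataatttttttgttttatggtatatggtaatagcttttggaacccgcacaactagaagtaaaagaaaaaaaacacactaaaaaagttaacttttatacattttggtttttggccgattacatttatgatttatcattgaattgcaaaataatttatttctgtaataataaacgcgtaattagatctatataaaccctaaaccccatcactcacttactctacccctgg
The match ends 53 bases before the first base of the NAC044 transcript, and its letters also meet the motif of the mitochondrial dysfunction regulon. SMR7 had 3.20, 2.14 and 8.38 CPM in nac103-11 rab8d-2, against 1.47, 1.99 and 2.69 CPM in nac103-11, groups that overlap, and its call (adjusted p = 0.0490) did not hold without replicate 3 (adjusted p = 0.366). SMR7 and AOX1C lie on one strand of chromosome 3 with 184 bases between them, and the division of reads between these neighbours was not tested.

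Some genes of the G2 and M phases rose by small steps. Of 31 genes of the G2 and M phases 8 were called higher and 0 lower (median log2 fold change 0.56), and of 33 S phase genes 3 and 0 (median 0.30), beside 14.7% called higher over all genes, a share that the S phase list did not reach. CDKB2;2, a mitotic cyclin-dependent kinase, had 34.6, 38.7 and 36.2 CPM in nac103-11 rab8d-2, against 19.8, 21.4 and 20.4 CPM in nac103-11 (log2 0.83 ± 0.21 SE, adjusted p = 0.00910), and the cyclin CYCB1;1, which also marks cells held in G2 after DNA damage, had 29.7, 21.9 and 16.1 CPM in nac103-11 rab8d-2, against 13.4, 10.8 and 10.9 CPM in nac103-11 (log2 0.95 ± 0.24 SE, adjusted p = 0.0100). AUR2, an Aurora kinase, and HTR12, the centromeric histone, rose by log2 0.78 (adjusted p = 0.0132) and 0.76 (adjusted p = 0.0157). In S phase, RNR2A, a subunit of ribonucleotide reductase, rose by log2 0.69 (adjusted p = 0.00161) and the sliding clamp gene PCNA2 by 0.84 (adjusted p = 0.00876). Among 14 CDK inhibitors 3 rose and 3 fell: SMR4 (AT5G02220) had 4.39, 3.09 and 10.5 CPM in nac103-11 rab8d-2, against 0.799, 1.16 and 1.07 CPM in nac103-11 (log2 2.56 ± 0.47 SE, adjusted p = 0.00154), KRP6 rose (log2 1.15 ± 0.30 SE, adjusted p = 0.0118), and SIM, which promotes endoreduplication in trichomes, and KRP2 fell (log2 -0.94 ± 0.22 SE, adjusted p = 0.00667, and log2 -0.85 ± 0.20 SE, adjusted p = 0.00556). Without replicate 3, 13 genes of the G2 and M phases and 5 of the S phase were called higher.

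Of 25 tested root meristem regulators 8 were called higher and 3 lower (median log2 fold change 0.27), beside 14.7% and 14.3% over all genes tested. The 4 described here had the smallest p of the list and were all higher. WOX5 (AT3G11260), the homeobox factor of the quiescent centre, had 8.74, 16.8 and 12.6 CPM in nac103-11 rab8d-2, against 2.44, 4.40 and 2.74 CPM in nac103-11, a 3.98-fold rise (log2 1.99 ± 0.31 SE, adjusted p = 0.000590). ERF115 (AT5G07310), which drives stem cell replenishment after injury, had 2.22, 4.13 and 6.25 CPM in nac103-11 rab8d-2, against 0.0420, 0.0463 and 0.0927 CPM in nac103-11 (log2 6.0 ± 0.72 SE, adjusted p = 0.000116). PSK5, a precursor of the phytosulfokine peptide downstream of ERF115, had 16.7, 24.6 and 85.2 CPM in nac103-11 rab8d-2, against 3.32, 6.02 and 3.25 CPM in nac103-11. Its highest value came from replicate 3, and without that library its log2 fold change was 2.29 (adjusted p = 0.000706), against 3.32 with it. CYCD3;3, a D-type cyclin, rose by log2 1.06 (adjusted p = 0.00226). In CPM the list summed to 812, 827 and 936 in nac103-11 rab8d-2, against 790.1, 739 and 814 in nac103-11.

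**Figure D2:**
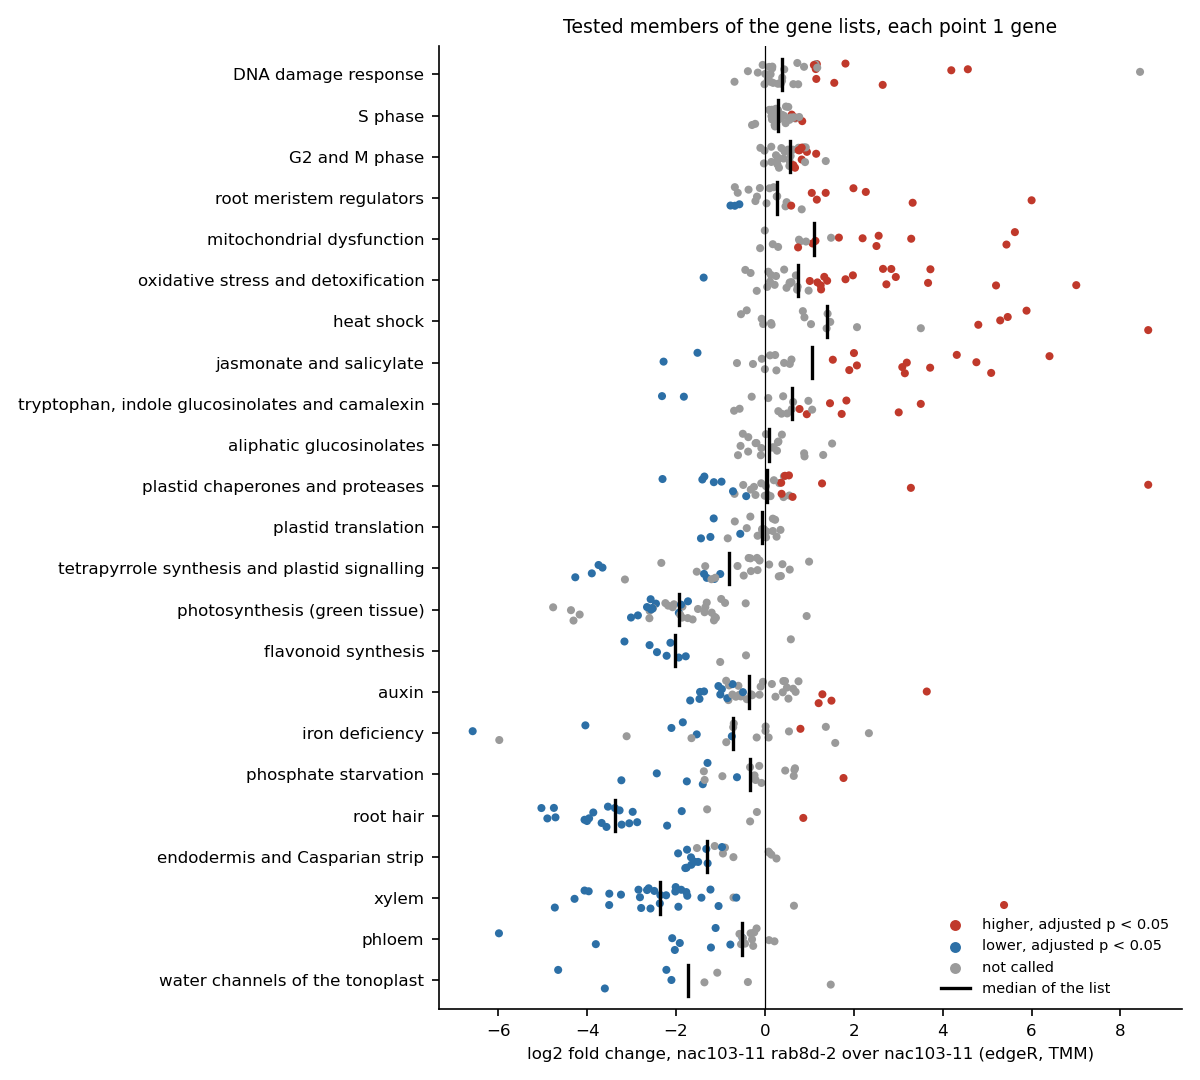
Log2 fold change of nac103-11 rab8d-2 over nac103-11 for each tested member of 23 gene lists, coloured where called higher (red) or lower (blue), with the median of each list as a black bar. Root hair and xylem genes lie far to the left with medians of -3.37 and -2.36, and mitochondrial dysfunction genes lie to the right with a median of 1.11.

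Genes of differentiated root cells fell. Of 23 root hair genes 19 fell and 1 rose, and the median log2 fold change was -3.37. LRX1 (AT1G12040), a leucine-rich repeat extensin of the hair wall, had 2.29, 1.59 and 7.19 CPM in nac103-11 rab8d-2, against 96.8, 112 and 145 CPM in nac103-11. The highest nac103-11 rab8d-2 library, replicate 3, lay far below the lowest of nac103-11, and LRX1 was 32.6-fold lower (log2 -5.03 ± 0.71 SE, adjusted p = 0.000318). RHS12, a pectin methylesterase family gene of root hairs, had 2.40 ± 1.69 CPM in nac103-11 rab8d-2 and 61.5 ± 13.5 CPM in nac103-11 (SD, n = 3 each; log2 -4.71, adjusted p = 0.000207), and RHS19, a peroxidase, had 15.8 ± 10.0 CPM in nac103-11 rab8d-2 and 229 ± 68.8 CPM in nac103-11 (log2 -3.86, adjusted p = 0.000248). The proline-rich wall protein PRP1 and MRH6, named for its part in root hair morphogenesis, fell by log2 4.89 and 3.67 (adjusted p = 0.000781 and 0.000259). The one called higher was CPC, a small MYB protein that moves between cells to specify hair cells (log2 0.86, adjusted p = 0.00546), picked out after its value was seen. Summed over the list, levels in CPM were 271, 166 and 576 in nac103-11 rab8d-2, against 2252, 1725 and 2617 in nac103-11, with replicate 3 the highest of its genotype and still below each nac103-11 library. Without it the median was -4.07.

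Extensins, the hydroxyproline-rich proteins that crosslink the cell wall, were among the 15 lowest named genes. EXT12 (AT4G13390) had 3.01, 2.54 and 10.6 CPM in nac103-11 rab8d-2, against 148, 146 and 238 CPM in nac103-11 (log2 -5.06 ± 0.80 SE, adjusted p = 0.000599). EXT13 and EXT6 had log2 fold changes of -4.92 (adjusted p = 0.000486) and -4.90 (adjusted p = 0.000815), and their repeated sequences make the division of reads among them uncertain. FLA6, a fasciclin-like arabinogalactan protein, fell by log2 4.92 (adjusted p = 0.00113), and CSLB02, a cellulose synthase-like enzyme, by 5.23 (adjusted p = 0.00558). BGLU34 and BGLU35 are neighbouring members of a subfamily of root myrosinases. BGLU34 had 1.503, 1.23 and 7.38 CPM in nac103-11 rab8d-2, against 161, 78.1 and 111 CPM in nac103-11. BGLU35 had 0.712, 0.516 and 6.44 CPM in nac103-11 rab8d-2, against 141, 86.9 and 127 CPM in nac103-11. Both fell (log2 -5.16, adjusted p = 0.00663, and log2 -5.60, adjusted p = 0.00735), and as close copies they are uncertain singly. No overlap between the groups was a condition for naming the 15 highest and 15 lowest genes, so it adds no support for any of them.

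Xylem genes fell almost as a whole, 27 of 30 with 1 higher and a median of -2.36. CESA4 (AT5G44030), a cellulose synthase of secondary walls, had 10.4, 7.50 and 19.9 CPM in nac103-11 rab8d-2, against 61.3, 63.6 and 67.3 CPM in nac103-11, a 5.10-fold fall (log2 -2.35 ± 0.34 SE, adjusted p = 0.000349). IRX6, a COBRA-like protein, and GUT2 (IRX10), a xylan synthase, fell by log2 2.36 and 1.43 (adjusted p = 0.000268 and 0.000224). The gene of this list that rose was PRX52 (AT5G05340), a peroxidase of lignin formation, with 11.4, 17.2 and 47.8 CPM in nac103-11 rab8d-2, against 0.252, 1.02 and 0.556 CPM in nac103-11 (log2 5.38 ± 0.66 SE, adjusted p = 0.000134). Without replicate 3 the median of the list was -3.01. DIR5, a dirigent protein, a family that steers the coupling of lignin and lignan precursors, had 2981 reads in nac103-11 rab8d-2 and 3 in nac103-11. Its libraries held 7.67, 40.4 and 111 CPM in nac103-11 rab8d-2, against 0, 0.0463 and 0.0927 CPM in nac103-11, with a wide spread among the 3 nac103-11 rab8d-2 libraries (log2 10.03 ± 1.21 SE, adjusted p = 0.000204).

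Endodermis genes fell in 11 of 20 with 0 rising (median -1.30). CASP5 (AT5G15290) and CASP4 are membrane scaffolds of the Casparian strip. CASP5 had 13.4, 10.2 and 21.0 CPM in nac103-11 rab8d-2, against 68.1, 36.5 and 67.4 CPM in nac103-11 (log2 -1.95 ± 0.38 SE, adjusted p = 0.00228). CASP4 had 14.1, 7.26 and 21.9 CPM in nac103-11 rab8d-2, against 51.0, 39.6 and 58.7 CPM in nac103-11 (log2 -1.79 ± 0.37 SE, adjusted p = 0.00322). GSO1, also known as SGN3, the receptor that keeps the strip continuous, had 19.6 ± 2.14 CPM in nac103-11 rab8d-2 and 47.8 ± 4.01 CPM in nac103-11 (SD, n = 3 each; log2 -1.29 ± 0.25 SE, adjusted p = 0.00189). Added up, the list's levels in CPM were 564, 429.7 and 1109 in nac103-11 rab8d-2, against 1413, 1914 and 1676 in nac103-11. Without replicate 3, 14 fell and the median was -1.96. In the phloem, 9 of 20 genes fell and 0 rose. SWEET11 (AT3G48740), a sucrose exporter, had 1.58, 0.278 and 6.63 CPM in nac103-11 rab8d-2, against 137, 56.8 and 322 CPM in nac103-11 (log2 -5.98 ± 0.99 SE, adjusted p = 0.000839), its relative SWEET12 fell by log2 3.80 (adjusted p = 0.00111), and BAM3, a receptor of protophloem, fell by 1.21 (adjusted p = 0.00127). Columella genes (6 tested) included 2 that fell, CEL5 (log2 -1.0, adjusted p = 0.00738) and the NAC factor NAC070 (-2.15, adjusted p = 0.0124). In the small list for non-hair epidermis and cortex GL2, a regulator of non-hair fate, fell (log2 -1.26 ± 0.24 SE, adjusted p = 0.00190) and PDF2 (AT4G04890), an epidermal homeodomain factor, rose (log2 2.13 ± 0.55 SE, adjusted p = 0.0104).

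Tonoplast water channels fell in 4 of 8 tested genes. TIP2;3 (AT5G47450) had 15.6, 10.6 and 28.8 CPM in nac103-11 rab8d-2, against 454, 309 and 614 CPM in nac103-11 (log2 -4.65 ± 0.58 SE, adjusted p = 0.000144), and TIP2;2 had 80.0, 44.4 and 246 CPM in nac103-11 rab8d-2, against 1327, 1368 and 1789 CPM in nac103-11 (log2 -3.60 ± 0.58 SE, adjusted p = 0.000669). GAMMA-TIP (TIP1;1) had 539.7, 348 and 1058 CPM in nac103-11 rab8d-2, against 2590.4, 2446 and 3318 CPM in nac103-11 (log2 -2.10 ± 0.38 SE, adjusted p = 0.00139). Over the whole list the summed level in CPM was 1319.8, 729 and 2999 in nac103-11 rab8d-2, against 7514, 7202 and 10025 in nac103-11. Without replicate 3, 6 fell and the median was -2.81, against -1.73 with it. In sugar transport, SWEET3 fell (log2 -4.99 ± 0.57 SE, adjusted p = 9.62e-05), TMT1, a tonoplast sugar importer, fell (log2 -1.47 ± 0.38 SE, adjusted p = 0.0102), and MSS1 (STP13), a hexose importer, rose (log2 2.37 ± 0.58 SE, adjusted p = 0.00753) with 61.7, 119 and 325 CPM in nac103-11 rab8d-2, against 21.9, 44.9 and 31.0 CPM in nac103-11.

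Iron and phosphate genes fell more often than they rose, 6 against 1 of 21 and 6 against 1 of 19. FRO5 and FRO4, which encode metal reductases, are not members of the iron list and were among the 15 lowest named genes. FRO5 had 0, 0.278 and 0.125 CPM in nac103-11 rab8d-2, against 39.6, 39.2 and 53.5 CPM in nac103-11 (log2 -8.29 ± 1.17 SE, adjusted p = 0.000319). FRO4 had 1.70, 0.873 and 3.25 CPM in nac103-11 rab8d-2, against 90.3, 72.2 and 102 CPM in nac103-11 (log2 -5.54 ± 0.72 SE, adjusted p = 0.000187). These 2 genes are neighbours of similar sequence and shared reads make their levels uncertain, though both groups lay far apart. IRT2, an iron transporter, fell (log2 -4.04 ± 0.83 SE, adjusted p = 0.00303), as did FRU, which is the iron deficiency regulator FIT (log2 -1.53 ± 0.32 SE, adjusted p = 0.00304), whereas FER1, a ferritin that stores iron in plastids, rose (log2 0.80 ± 0.20 SE, adjusted p = 0.00835). IRT1, the main iron transporter of the root surface, had 0, 0 and 0.188 CPM in nac103-11 rab8d-2, against 0.757, 14.1 and 0.325 CPM in nac103-11; 305 of its 330 nac103-11 reads came from replicate 2, and the call (adjusted p = 0.0313) held in 3 of 6 fits with a library left out. PHO1 (AT3G23430), which loads phosphate into the xylem, had 105, 95.8 and 111 CPM in nac103-11 rab8d-2, against 317, 390.1 and 348 CPM in nac103-11 (log2 -1.76 ± 0.26 SE, adjusted p = 0.000401), and the lipid remodelling genes SQD2 and MGD2 fell by log2 1.40 and 1.29 (adjusted p = 0.00138 and 0.00216). Without replicate 3, 9 phosphate genes fell and the median was -0.91, against -0.33 with it. SULTR1;1, a root sulfate transporter, fell by log2 4.78 (adjusted p = 0.000905).

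Flavonoid synthesis fell in 7 of 10 tested genes with 0 rising and a median of -2.03. F3H (AT3G51240), flavanone 3-hydroxylase, had 18.1, 18.1 and 35.2 CPM in nac103-11 rab8d-2, against 146, 115 and 123 CPM in nac103-11 (log2 -2.43 ± 0.27 SE, adjusted p = 8.01e-05). FLS1, the flavonol synthase, had 10.5, 7.93 and 19.0 CPM in nac103-11 rab8d-2, against 130.2, 110.5 and 92.3 CPM in nac103-11 (log2 -3.16 ± 0.47 SE, adjusted p = 0.000421), and TT5 (chalcone isomerase) and CHIL (a chalcone isomerase-like protein) fell by log2 2.59 and 2.12 (adjusted p = 0.000336 and 0.000468). The summed level of the list in CPM was 164, 146 and 341 in nac103-11 rab8d-2, against 1053, 960.2 and 920.2 in nac103-11, and the groups did not overlap. Auxin genes fell in 10 and rose in 4 of 38: the efflux carriers PIN3 and PIN7 fell by log2 1.0 and 0.73 (adjusted p = 0.000947 and 0.00320), while GH3.3, which conjugates auxin to amino acids, rose (log2 3.64 ± 0.52 SE, adjusted p = 0.000351) and MP, the auxin response factor ARF5, rose (log2 1.21 ± 0.21 SE, adjusted p = 0.000995). Without replicate 3, 16 auxin genes fell (median -0.63, against -0.36 with it). Cytokinin genes were called higher in 3 and lower in 6 of 35 (median -0.01), beside 14.7% and 14.3% over all genes tested. The activating enzymes LOG3 and LOG4 were higher by log2 1.25 and 1.40 (adjusted p = 0.00616 and 0.00903). The degrading enzyme CKX4 was lower (-1.74 on the log2 scale, adjusted p = 0.00592), as was the response regulator RR10, with 2551 reads in nac103-11 rab8d-2 and 4498 in nac103-11. Abscisic acid genes gave 2 higher and 1 lower calls of 26. Among the lists not described further, 1 of 10 morning clock genes fell and 0 rose, and evening clock (11 tested) and seed storage (9 tested) genes had 0 calls and 0 members at an unadjusted p below 0.05 in edgeR, where limma on log2(TPM + 1) called 2 evening clock genes lower.

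Stress and defence genes rose, most of all in replicate 3. Of 35 genes of oxidative stress and detoxification 16 were called higher and 1 lower (median 0.74). GSTU12 (AT1G69920), a glutathione transferase, had 18.4, 11.2 and 42.3 CPM in nac103-11 rab8d-2, against 0.0420, 0.139 and 0.371 CPM in nac103-11 (log2 7.01 ± 0.94 SE, adjusted p = 0.000228), and its neighbour GSTU11 had 13.3, 16.5 and 43.8 CPM in nac103-11 rab8d-2, against 0.547, 0.973 and 0.464 CPM in nac103-11 (log2 5.2 ± 0.55 SE, adjusted p = 6.51e-05). GSTU10, by contrast, had nearly the same level in its 3 nac103-11 rab8d-2 libraries, 22.4, 17.3 and 20.3 CPM in nac103-11 rab8d-2, against 9.33, 10.5 and 9.88 CPM in nac103-11 (log2 1.01 ± 0.15 SE, adjusted p = 0.000459). In CPM the list summed to 6421, 7167 and 18955 in nac103-11 rab8d-2, against 6479, 8794 and 7738 in nac103-11, so that replicates 1 and 2 lay within or just below the range of nac103-11. Without replicate 3, 11 genes were called higher and the median was 0.37.

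Jasmonate and salicylate genes were called higher in 12 and lower in 2 of 24 tested (median 1.06), and without replicate 3 in 5 and 3 (median 0.24). JAZ10 (AT5G13220), a repressor that is itself induced by jasmonate, had 57.8, 36.8 and 200.3 CPM in nac103-11 rab8d-2, against 2.61, 2.18 and 3.85 CPM in nac103-11 (log2 5.09 ± 1.05 SE, adjusted p = 0.00293). LOX3, a lipoxygenase of jasmonate synthesis, had 43.1, 7.26 and 103.2 CPM in nac103-11 rab8d-2, against 0.547, 1.07 and 0.185 CPM in nac103-11 (log2 6.40 ± 1.46 SE, adjusted p = 0.00529), and AOC1, an allene oxide cyclase, had 4.75, 3.49 and 36.4 CPM in nac103-11 rab8d-2, against 0.336, 0.742 and 0.556 CPM in nac103-11 (log2 4.76 ± 0.76 SE, adjusted p = 0.000635). Summed over the list, levels in CPM were 1533, 922 and 3696 in nac103-11 rab8d-2, against 868, 945 and 928 in nac103-11. All 3 genes and the sum were highest in replicate 3, and without it the log2 fold changes were 4.02 for JAZ10, 5.36 for LOX3 and 2.90 for AOC1. ABR1, an ERF transcription factor, had 11.1, 28.7 and 178 CPM in nac103-11 rab8d-2, against 0.547, 1.53 and 1.48 CPM in nac103-11. BCB, a blue copper protein, had 64.1, 37.2 and 507 CPM in nac103-11 rab8d-2, against 2.27, 3.24 and 3.25 CPM in nac103-11. Both were called (log2 5.93, adjusted p = 0.000719, and 6.12, adjusted p = 0.00294), and without replicate 3 their log2 fold changes were 4.07 (adjusted p = 0.000750) and 4.1 (adjusted p = 0.00759).

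WRKY28 (AT4G18170), a transcription factor, was among the 15 highest, with 9.77, 8.57 and 20.5 CPM in nac103-11 rab8d-2, against 0, 0.0927 and 0.185 CPM in nac103-11 (log2 7.08 ± 0.66 SE, adjusted p = 3.27e-05). GAD4, a glutamate decarboxylase, had 6.61, 11.3 and 70.2 CPM in nac103-11 rab8d-2, against 0.126, 0.371 and 0.139 CPM in nac103-11 (log2 7.09 ± 1.01 SE, adjusted p = 0.000349). CYP715A1, a cytochrome P450, had 66, 112 and 203 reads in nac103-11 rab8d-2 and none in nac103-11, at least 128-fold higher against the floor of 3 reads. MSRB8, a methionine sulfoxide reductase, FAMT, a methyltransferase of farnesoic acid, and MAPKKK21, a kinase, had log2 fold changes of 5.69, 6.34 and 6.46 (adjusted p = 0.000762, 0.00621 and 0.00270), each highest in replicate 3. Without that library the log2 fold changes were 5.37 for GAD4, 4.11 for MSRB8, 4.82 for FAMT and 4.37 for MAPKKK21 (adjusted p = 0.000260, 0.00105, 0.0167 and 0.00739). PP2-B14, a lectin-like phloem protein, was lowest of its genotype in replicate 3, with 13.8, 9.20 and 6.5 CPM in nac103-11 rab8d-2, against 0.0420, 0.324 and 0.0927 CPM in nac103-11 (log2 5.99 ± 1.13 SE, adjusted p = 0.00185).

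Of 19 heat shock genes 5 rose and 0 fell, with a median of 1.39. HSP23.6-MITO (AT4G25200), a small heat shock protein of mitochondria, had 20.22, 18.6 and 29.9 CPM in nac103-11 rab8d-2, against 0.210, 0.371 and 0.974 CPM in nac103-11, evenly over its 3 libraries (log2 5.46 ± 1.39 SE, adjusted p = 0.00963). HSP17.6A and ATHSP22.0, of the cytosol and the endoplasmic reticulum, rose by log2 5.29 (adjusted p = 0.0134) and 5.89 (adjusted p = 0.00506). Both were uneven over the nac103-11 rab8d-2 libraries and highest in replicate 2. HSP17.6A had 197, 868 and 321 reads there, against 11, 12 and 12 in nac103-11. ATHSP22.0 had 20, 294 and 69 reads, against 3, 1 and 2. In the unfolded protein response of the endoplasmic reticulum, in which NAC103 has been placed, 5 of 30 genes were called higher and 4 lower (median 0.03), close to all genes. BZIP60, the transcription factor spliced by IRE1, had 92.0, 57.8 and 164 CPM in nac103-11 rab8d-2, against 44.5, 52.7 and 49.1 CPM in nac103-11 (log2 1.1 ± 0.28 SE, adjusted p = 0.00971), and PDIL1-3, a disulfide isomerase, fell (log2 -1.04 ± 0.26 SE, adjusted p = 0.00813), as did the sensor IRE1A (log2 -0.59 ± 0.14 SE, adjusted p = 0.00756). BIP3, an inducible chaperone, had 27 reads in nac103-11 rab8d-2 and 1 in nac103-11, a ratio of 27.2 with a 95% interval of 4.48 to 1113.

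Tryptophan synthesis and its indole products rose in 7 and fell in 2 of 21 genes. ASA1 and ASB1 encode subunits of anthranilate synthase, which begins tryptophan synthesis. ASA1 had 90.67, 85.2 and 88.6 CPM in nac103-11 rab8d-2, against 24.8, 30.5 and 24.5 CPM in nac103-11 (log2 1.73 ± 0.29 SE, adjusted p = 0.000967). ASB1 had 133, 102 and 246 CPM in nac103-11 rab8d-2, against 37.96, 53.3 and 43.8 CPM in nac103-11 (log2 1.83 ± 0.29 SE, adjusted p = 0.000549). Both rose without overlap. The median of the list was 0.60, and without replicate 3 it was 0.03, with 6 higher and 3 lower. CYP71A12, of camalexin and related indole synthesis, rose (log2 3.51 ± 0.56 SE, adjusted p = 0.000665), and IGMT1, a methyltransferase of indole glucosinolates, fell (log2 -2.31 ± 0.46 SE, adjusted p = 0.00250). Aliphatic glucosinolate genes gave 0 higher and 0 lower calls of 20 in edgeR (median 0.09), with 3 higher at an unadjusted p below 0.05 and 0 calls by limma on log2(TPM + 1). The member with the smallest p was SOT17, a sulfotransferase, with 26.3, 15.2 and 78.3 CPM in nac103-11 rab8d-2, against 11.0, 26.5 and 10.7 CPM in nac103-11 (adjusted p = 0.0587), and its groups overlap. Without replicate 3 of nac103-11 rab8d-2 the median of the aliphatic list was -0.36, with 0 genes called higher and 1 lower.

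**Figure D3:**
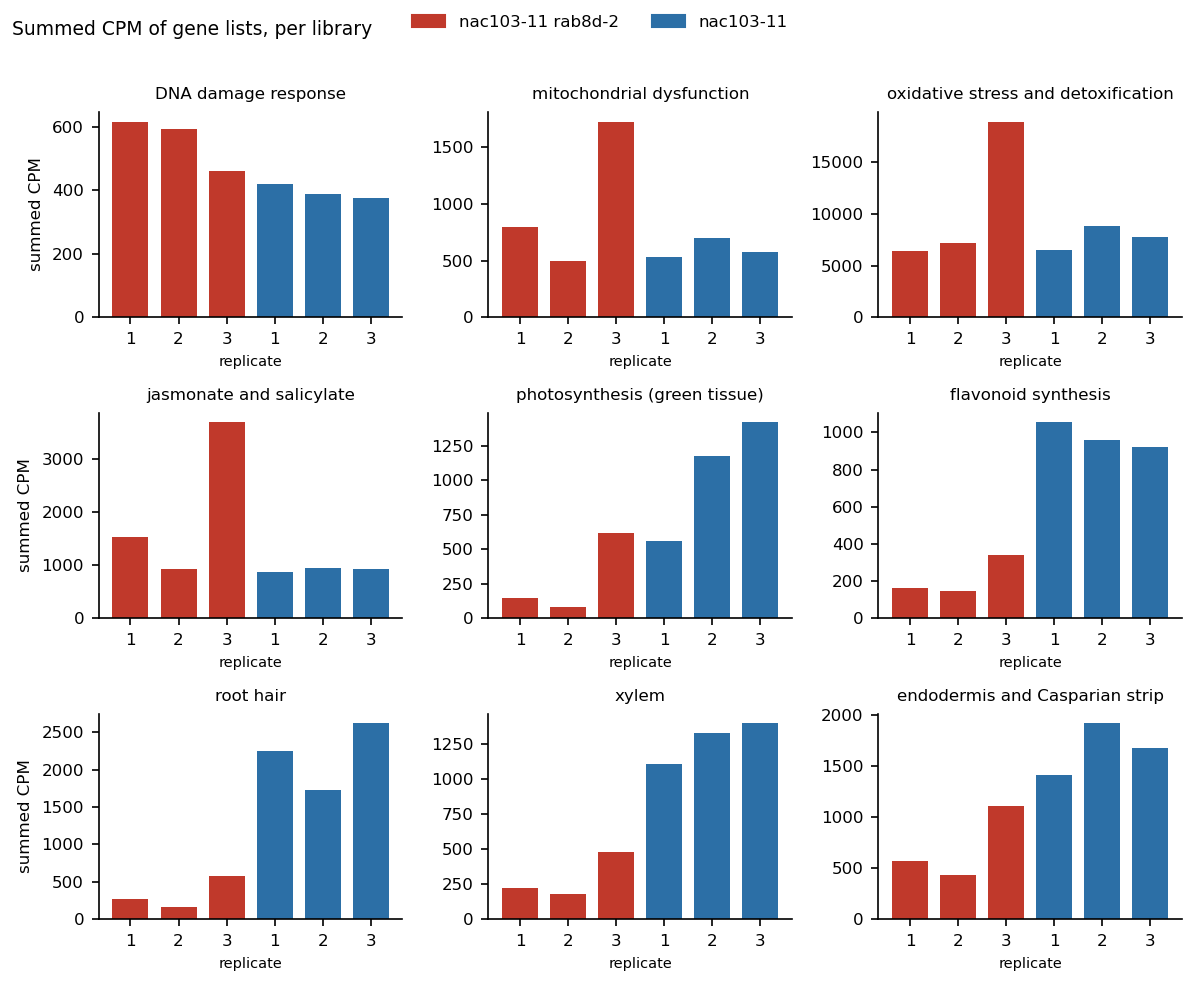
Summed TMM-scaled CPM of 9 gene lists in each library, nac103-11 rab8d-2 at left in red and nac103-11 at right in blue (bars start at 0). Oxidative stress and jasmonate genes are highest in replicate 3 of nac103-11 rab8d-2, at 18955 and 3696 CPM, and root hair and xylem genes are below nac103-11 in all 3 double mutant libraries.

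Gene families were also read from the symbols, as the 66 stems shared by at least 15 tested genes, and 9 of them, chosen after their values were seen, are described with no test. Subunits of RNA polymerases under the stem NRPB were called higher in 12 and lower in 1 of 15 (median log2 0.80). Ribosomal proteins under the stems RPS and RPL rose in 15 of 24 and 11 of 21, with medians of 0.77 and 0.54 and none called lower. Without replicate 3 the counts called higher were 11 for NRPB, 7 for RPS and 8 for RPL, and 2 RPL genes were called lower. Transcripts of these 3 stems are short, with a median exon length of 945 to 1085 bases beside 1702 over all genes tested, and with the trend of each library with exon length removed the counts were 8, 9 and 9, with 1, 1 and 2 called lower. Glutathione transferases of the GSTU stem rose in 13 and fell in 4 of 25, and without replicate 3 rose in 9 and fell in 6. Among stems with more falls than rises, fasciclin-like arabinogalactan proteins (FLA) had 11 lower and 1 higher of 15 (median -1.81) and arabinogalactan proteins (AGP) 15 and 2 of 27. Genes under the stem PIP, with plasma membrane water channels among them, had 9 and 2 of 19. Xyloglucan enzymes (XTH) had 11 and 1 of 25, and amino acid transporters of the UMAMIT stem 13 and 0 of 34. A stem was read from letters alone and can join unlike genes. Without replicate 3 the lower counts of these 5 stems were 14, 18, 10, 16 and 15.

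The rab8d-2 effect was then set beside the same effect in the WT and gun1-101 backgrounds, which share no library with it. In rab8d-2 against WT 2585 genes (12.3%) were called, 1009 higher (4.80%) and 1576 lower (7.50%). In gun1-101 rab8d-2 against gun1-101 there were 5946 (28.3%), 2658 higher (12.7%) and 3288 lower (15.7%). Replicates 1 and 2 of gun1-101 rab8d-2 differed by a mean chi-square of 2.14 per gene, above the 1 of sampling noise and far below the 12.1 to 182 of other replicate pairs in the series. Whether they come from separate plants is not given in the labels, and the counts for gun1-101 rab8d-2 here and in the difference from it treat them as separate samples, so that p-values for this genotype may be too small. Of the 6086 calls in nac103-11, 1635 (26.9%) were called in the same direction in WT and 3115 (51.2%) in gun1-101, which is 63.2% of the WT calls and 52.4% of the gun1-101 calls. These shares depend on how many genes each comparison called and do not measure how alike the effects are. WT replicate 3 also stood apart, with r = 0.911 and 0.912 to the other 2 WT libraries, against 0.969 between those 2. In all 3 backgrounds 404 genes were called higher and 988 lower, while 3 genes were called in opposite directions in nac103-11 and WT and 20 in nac103-11 and gun1-101. Median log2 fold changes of the xylem list were -2.36 in nac103-11, -1.95 in WT and -2.39 in gun1-101, and those of the DNA damage list 0.39, 0.90 and 0.70. No member of either list passed the test of a difference from WT or from gun1-101. Without nac103-11 rab8d-2 replicate 3 the DNA damage median in nac103-11 was 0.52. NDB4 had log2 fold changes of 5.62, 5.17 and 5.37, and NAC044 of 4.19, 4.30 and 4.05, in the same order. ACC2 had 2.78, 4.68 and 2.99. The difference between nac103-11 and WT did not pass for ACC2 (log2 -1.90 ± 0.48 SE, adjusted p = 0.161) nor for EMB1030 (log2 -1.69 ± 0.52 SE, adjusted p = 0.189).

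**Figure D4:**
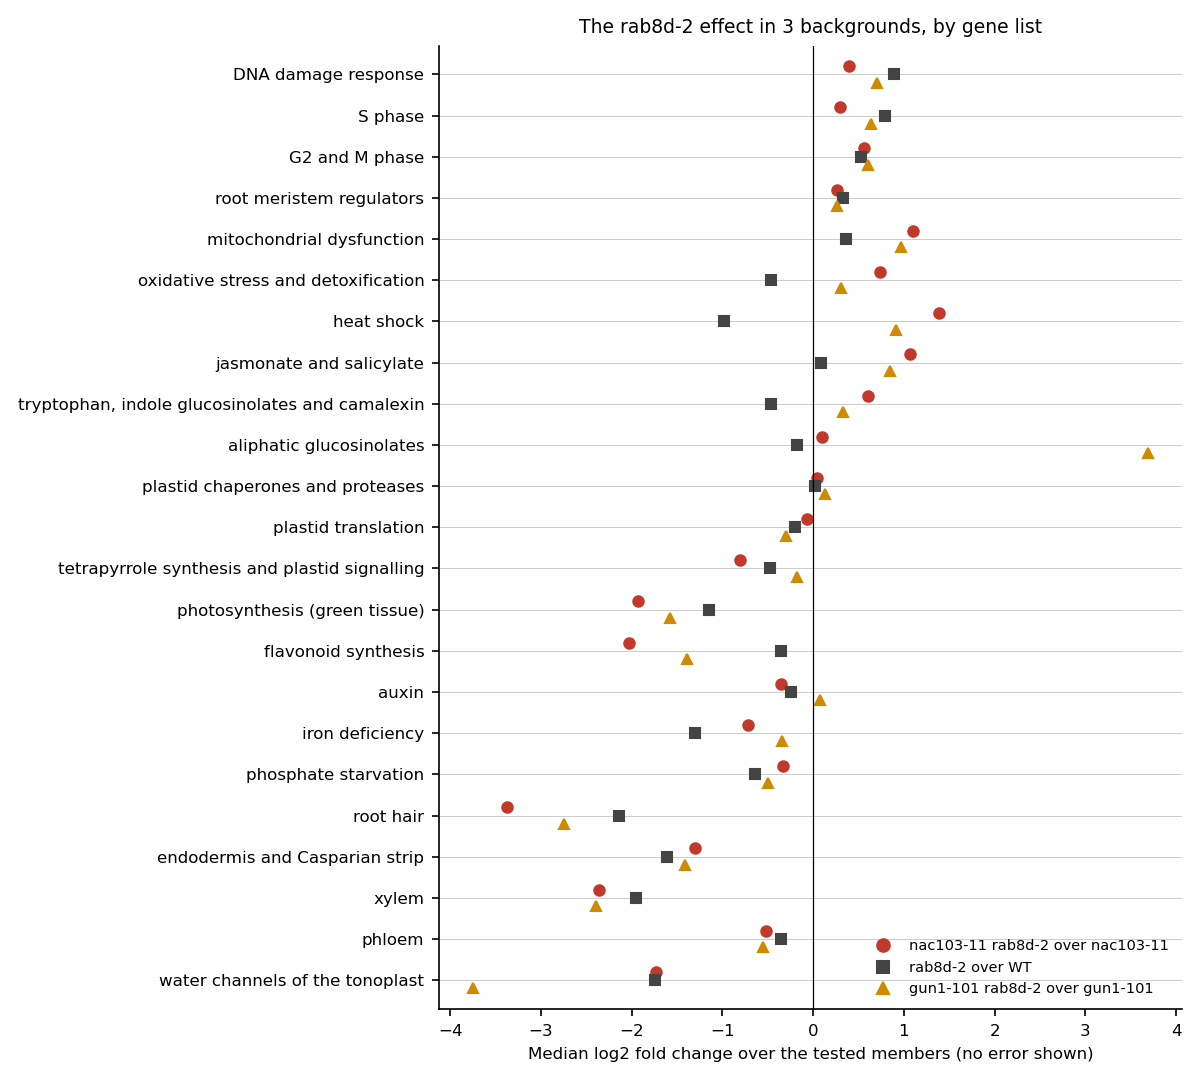
Median log2 fold change over the tested members of 23 gene lists for the rab8d-2 effect in nac103-11 (circles), WT (squares) and gun1-101 (triangles), with no error shown. Xylem medians lie between -2.39 and -1.95 in the 3 backgrounds, and the aliphatic glucosinolate median is 0.09 in nac103-11 and 3.69 in gun1-101.

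Between the nac103-11 and WT backgrounds, 2 genes (0.00952%) passed the test of the difference, 1 in each direction (0.00476% each), with 3340 at an unadjusted p below 0.05, 548 calls by the DESeq2 Wald test and 60 by limma on log2(TPM + 1). Both are genes with RNA near 0 in some lines. MRD1 (AT1G53480, chr1:19963047-19964712), named for its fall in a methionine over-accumulating mutant, had 37.9, 53.4 and 69.0 CPM in nac103-11 rab8d-2, against 47.9, 55.7 and 57.5 CPM in nac103-11, and 0.249, 0.201 and 0.729 CPM in rab8d-2, against 84.6, 67.8 and 40.6 CPM in WT. Its level was thus low in rab8d-2 and not in nac103-11 rab8d-2 (difference log2 7.33 ± 0.85 SE, adjusted p = 0.00354), and it was also low in both gun1-101 lines, with 0.0392, 0.0782 and 0 CPM in gun1-101 rab8d-2, against 0.525, 1.84 and 0.132 CPM in gun1-101. AT1G75945 (chr1:28515245-28515916), a gene with no symbol named after its values were seen, had 27.5, 29.8 and 45.2 CPM in nac103-11 rab8d-2, against 16.4, 18.8 and 16.6 CPM in nac103-11, and 25.6, 38.3 and 22.2 CPM in rab8d-2, against 0.199, 0.215 and 0 CPM in WT. It was near 0 in WT and gun1-101 and present in the other 4 lines (difference log2 -6.72 ± 0.65 SE, adjusted p = 0.000683). The heat shock list had a median of 1.39 in nac103-11 and -0.98 in WT, and no member passed the test of the difference. Its summed level in CPM was 1516, 1248 and 3743 in rab8d-2, against 546, 808 and 11454 in WT, with WT replicate 3 far above the other 2. Morning clock genes summed to 86.7, 81.9 and 583 CPM in rab8d-2, against 91.8, 111 and 809.8 CPM in WT, and evening clock genes to 556, 496 and 247 CPM in rab8d-2, against 593, 896 and 262 CPM in WT. Replicate 3 of both lines was high in the morning and low in the evening genes, and their part in the difference was not tested.

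Between the nac103-11 and gun1-101 backgrounds 62 genes (0.295%) passed, 19 with a higher (0.0905%) and 43 with a lower (0.205%) effect in nac103-11, beside 3136 at an unadjusted p below 0.05. The count fell to between 9 and 18 when any 1 library of gun1-101 or replicate 1 or 2 of gun1-101 rab8d-2 was left out, to 17 without nac103-11 replicate 1 or 2, and to 28 without nac103-11 replicate 3 or nac103-11 rab8d-2 replicate 2. Aliphatic glucosinolate genes were the most frequent of the lists, with 5 of 20 members called in the difference and 15 called higher in gun1-101 rab8d-2 against gun1-101. IMS2 (AT5G23020, also MAM3), a methylthioalkylmalate synthase, had 61.8, 69.8 and 98.4 CPM in nac103-11 rab8d-2, against 83.7, 166 and 86.7 CPM in nac103-11, groups that overlap. It had 169.7, 170.2 and 202 CPM in gun1-101 rab8d-2, against 6.73, 4.35 and 8.29 CPM in gun1-101 (difference log2 -5.35 ± 0.54 SE, adjusted p = 0.00131). CYP79F2, a cytochrome P450 of the core pathway, had a log2 fold change of -0.60 in nac103-11 and 5.44 in gun1-101 (difference log2 -6.05 ± 0.78 SE, adjusted p = 0.00545), and AK3, an aspartate kinase on the way to methionine, of 0.06 and 4.70 (difference log2 -4.65 ± 0.61 SE, adjusted p = 0.00545). For these 3 genes gun1-101 lay at 0.851 to 8.29 CPM, while nac103-11 and WT lay between 7.13 and 166 CPM. Over the whole list the summed level was 1133, 1129.7 and 1246 CPM in gun1-101 rab8d-2, against 319, 324 and 333 CPM in gun1-101, and 664, 531 and 1264 CPM in nac103-11 rab8d-2, against 572, 1144 and 596 CPM in nac103-11. WT libraries had 700.4, 584 and 458 CPM, so gun1-101 lay below and gun1-101 rab8d-2 above WT.

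SRO1 (AT2G35510), of the RCD1 family of stress regulators, had 22.4, 24.0 and 18.3 CPM in nac103-11 rab8d-2, against 42.2, 44.4 and 41.2 CPM in nac103-11 and fell (log2 -0.98 ± 0.13 SE, adjusted p = 0.000228). In the gun1-101 background it had 59.6, 61.0 and 50.9 CPM in gun1-101 rab8d-2, against 41.2, 43.5 and 44.5 CPM in gun1-101, so the 2 effects ran in opposite directions (difference log2 -1.39 ± 0.19 SE, adjusted p = 0.00566). RBOHB, an NADPH oxidase, G6PD3, a plastid glucose-6-phosphate dehydrogenase, APL2, a large subunit of ADP-glucose pyrophosphorylase, and PES1, a phytyl ester synthase, likewise fell in nac103-11 rab8d-2 and rose in gun1-101 rab8d-2. Their log2 fold changes were -0.97 and 1.0 for RBOHB, -0.74 and 1.63 for G6PD3, -1.16 and 0.68 for APL2, and -1.14 and 1.09 for PES1, each called in both backgrounds. Morning clock genes summed to 127, 125 and 335 CPM in gun1-101 rab8d-2, against 572, 546 and 546 CPM in gun1-101, and to 73.0, 113 and 58.0 CPM in nac103-11 rab8d-2, against 145, 119.8 and 127 CPM in nac103-11. Their part in the differences was not tested.

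**Figure D5:**
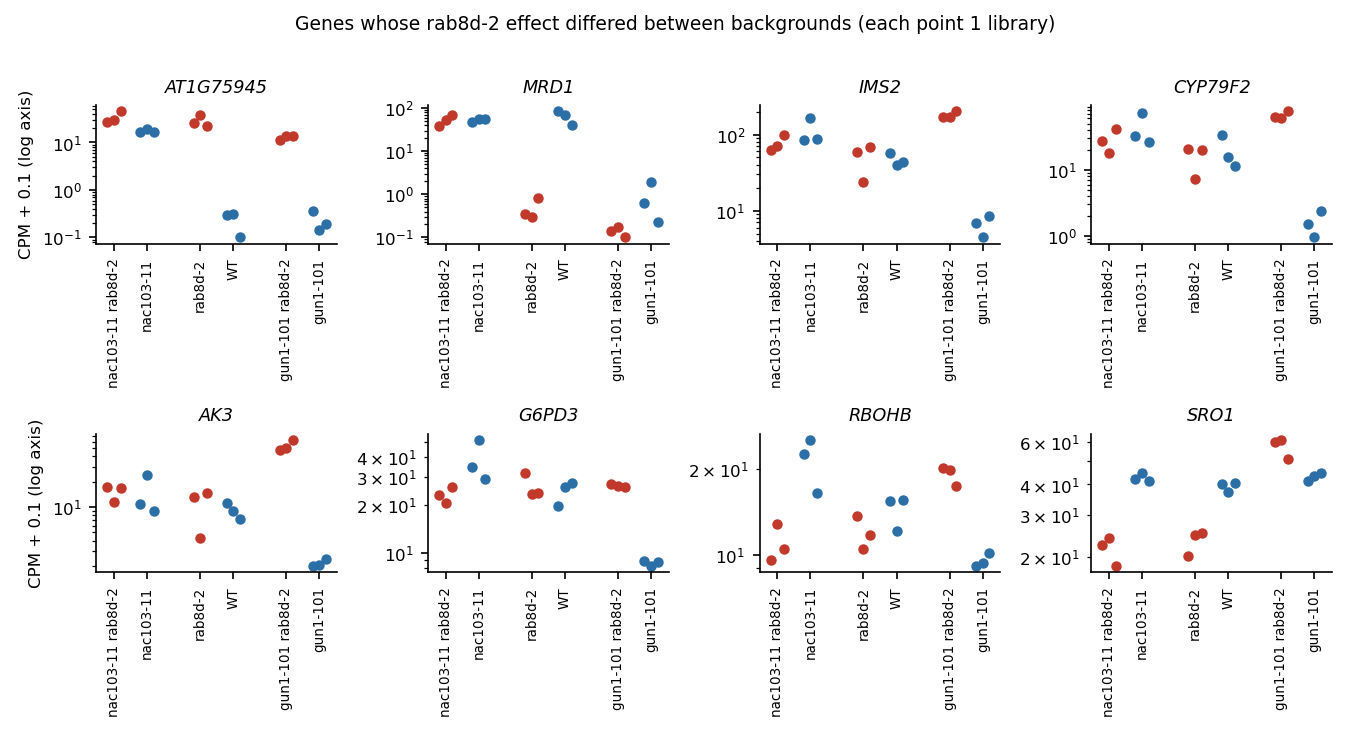
TMM-scaled CPM plus 0.1 on a log axis in each of 3 libraries of 6 genotypes for 8 genes whose rab8d-2 effect differed between backgrounds, rab8d-2 carriers in red left of their parent line in blue. IMS2, CYP79F2 and AK3 are low in gun1-101, and SRO1 lies below its parent in nac103-11 rab8d-2 and above it in gun1-101 rab8d-2.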

How the data were processed

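Polyadenylated RNA of root tips was sequenced by the authors, who deposited one table of estimated counts per gene for the 18 libraries, made with RSEM 1.3.1 on TAIR10 per the submitters' processing notes; the aligner and filters are not given in the sources used here. RSEM divides reads among similar genes by likelihood, so close copies are uncertain singly. The deposited TPM values of the same table served as an alternative. Symbols and coordinates came from RefSeq TAIR10.1, in which all 25177 gene IDs matched, and upstream windows were read from its genome.

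Counts were rounded, filtered with filterByExpr (21004 genes left), scaled by TMM and tested with edgeR 4.0.16 (R 4.3.3) by the robust quasi-likelihood F test over all 18 libraries, with Benjamini-Hochberg adjustment over all genes tested. SEs were taken from the log2 fold change and its F value. The steps were tested on simulated data. The comparisons were nac103-11 rab8d-2 against nac103-11, the same effect in WT and gun1-101, and the 2 differences of effects. Intervals and floors of 3 reads cover counting error only.

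Named genes were RAB8D, NAC103 and GUN1, the 15 highest and 15 lowest fold changes, taken from called genes that have a symbol, reach 5 CPM and show no overlap, up to 4 called members of each of 35 lists by smallest p, and up to 8 genes with a symbol for each difference. The comparison, its lists and this rule were chosen with earlier results of these data known. Alternatives were DESeq2 1.42.0, limma 3.58.1 on log2(TPM + 1), voom weights, other filters, the 6 libraries alone, a replicate block and leaving out libraries. Removing the exon length trend and using 5 libraries were chosen after seeing the data. One gene is not reported here.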

Additional observations from a re-analysis of the deposited data

Results flagged for a closer look

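The rab8d-2 effect differed between backgrounds in these named genes, by the edgeR test of the difference itself over all 18 libraries. Between nac103-11 and WT the log2 difference was 7.33 for MRD1 (adjusted p = 0.00354) and -6.72 for AT1G75945 (adjusted p = 0.000683). Between nac103-11 and gun1-101 it was -5.54 for AT1G75945, -6.05 for CYP79F2, -5.35 for IMS2, -4.65 for AK3, -2.37 for G6PD3, -2.23 for PES1, -1.97 for RBOHB, -1.84 for APL2 and -1.39 for SRO1, with adjusted p-values in edgeR between 0.00131 and 0.0104.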

How the results depend on the processing

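The genes called in nac103-11 rab8d-2 against nac103-11 (6086, with 3089 higher and 2997 lower) numbered 11686 with voom quality weights (5999 and 5687) and 2875 with only the 6 libraries compared (1213 and 1662). With WT replicate 3 and nac103-11 rab8d-2 replicate 3 both left out, 4569 were lower. Leaving out 1 library gave 4020 to 6879 calls, 1934 to 2963 higher and 2086 to 3916 lower, and 5 to 12 of the 155 called named genes lost their call.

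The difference from WT (2 genes) numbered 60 with limma on log2(TPM + 1), 548 with the DESeq2 Wald test, 30 with voom weights, 8 with both libraries left out, 5 with the exon length trend removed, and 2 to 72 with 1 library left out, the most without nac103-11 rab8d-2 replicate 1. The difference from gun1-101 (62 genes) numbered 116, 447 and 4662 with those 3 tools, 38 with no filter, 25 with the exon length trend removed, and 9 to 71 with 1 library left out. The cause of these shifts was not tested.

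Replicate numbers are shared by the genotypes, and the deviations of libraries of one number correlated at r = 0.56, -0.32 and 0.43 for numbers 1, 2 and 3, so not every number pairs its libraries and they were not treated as pairs. With a replicate block there were 5360 calls (2608 higher, 2752 lower), and 37 genes in the difference from gun1-101.

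Near 0 and not called, MRD1 (log2 -0.01) was 0.00027 with no filter, 0.0061 with a stricter one and -0.24 to 0.19 with 1 library left out; AK3 (0.06) was -0.045 with both libraries left out, -0.033 in 5 libraries and -0.20 to 0.64 with 1 left out. Scaling by TPM moved the median log2 effect over all genes to 0.22 in WT and 0.20 in gun1-101, against 0.01 and 0.05 by TMM, and by less than 0.1 in nac103-11.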
